A study of Mus musculus with 70 samples.

Results

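Cxcl1, Cxcl2 and Cxcl3 encode the chemokines that draw neutrophils out of the blood through the receptor Cxcr2. They were taken by symbol from a table of gene counts, and all 3 of 3 were found among the 55011 gene symbols it lists. The table covers 70 mouse libraries in 28 groups and 6 experiments. MmSCs, a stromal-cell population of skeletal muscle, were sorted by flow cytometry over 2 rounds from hindlimb muscle, 1000 cells to a library. In the cytokine experiment, uninjured C57BL/6J mice received an intraperitoneal injection of PBS (2 libraries), of Il-1b, TNFa, Oncostatin M (Osm) or Il-17A alone (2 libraries each, MmSCs taken at 2 h), of Osm paired with each of the others (2 each, 2 h), or of all 4 together, sampled at 2 h (2 libraries), 4 h (1 library) and 8 h (2 libraries). The time after the PBS injection is not given in the sources used here. In the injury experiment, C57BL/6J MmSCs, CD45+ cells (leukocytes), CD31+ cells (mainly endothelial) and MuSCs (satellite cells, the muscle stem cells) were sorted from untreated muscle (day 0) and 1 day after cardiotoxin, a venom toxin that destroys muscle fibres, with 3 libraries in each of the 8 groups. Day 0 muscle had no sham injection. A reporter experiment split MmSCs of Il6RD mice, in which Thy1.1 on the surface marks cells that express Il6, into Thy1.1+ and Thy1.1- cells 12 h after cardiotoxin (3 libraries each). A knockout experiment took MmSCs from Il1b-KO (3 libraries) and Il1b-WT littermates (2 libraries) 1 day after cardiotoxin. A disease experiment took MmSCs from untreated DMDmdx mice at 2.5 and 7 weeks (3 libraries each) and 12.5 weeks of age (2 libraries). These mice lack full-length dystrophin through a germline mutation, and there was no wild-type control. Whole tibialis anterior muscle of C57BL/6J mice was taken 7 days after cardiotoxin under intraperitoneal anti-Cxcl5 antibody or IgG (3 libraries each). The sources used here give no ages for the other mice. Nothing ties the libraries to single animals, so errors and p-values measure the spread between libraries, which may be partly technical.

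Chemokines of this family carry the ELR motif before their first cysteines and act on Cxcr1 and Cxcr2 on neutrophils. In most tissues they are made on demand: Il-1b signals through Il1r1 and Myd88, and TNFa through Tnfrsf1a, to NF-kB, which starts transcription from a short proximal promoter. Il-17A is known more for slowing the decay of these mRNAs than for starting transcription, and Osm signals mainly through STAT3.

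The 3 genes lie within 119836 bases of mouse chromosome 5, all on the plus strand (GRCm38, GENCODE M21). Cxcl3 (ENSMUSG00000029379.10) is at 90786103 to 90789600, Cxcl1 (ENSMUSG00000029380.11) at 90891241 to 90893115 and Cxcl2 (ENSMUSG00000058427.10) at 90903871 to 90905938. The stretch of 101640 bases between Cxcl3 and Cxcl1 is far longer than the 10755 bases between Cxcl1 and Cxcl2. The 120 bases before each gene are printed because the inducing cytokines differ in the factors they use, and these windows show which letters the 3 genes have in common. Capitals mark the palindrome GGGAATTTCCC, an NF-kB site by its letters, and the TATA-like ATAAAA. Sequences are from RefSeq, GRCm38.p6, plus strand: chr5:90891121-90891240 for Cxcl1, chr5:90903751-90903870 for Cxcl2 and chr5:90785981-90786100 for Cxcl3.
Cxcl1: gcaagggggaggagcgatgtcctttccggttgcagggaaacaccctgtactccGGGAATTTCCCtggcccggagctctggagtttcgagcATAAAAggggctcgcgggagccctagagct
Cxcl2: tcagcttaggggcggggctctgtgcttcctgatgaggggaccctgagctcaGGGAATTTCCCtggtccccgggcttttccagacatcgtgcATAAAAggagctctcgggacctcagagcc
Cxcl3: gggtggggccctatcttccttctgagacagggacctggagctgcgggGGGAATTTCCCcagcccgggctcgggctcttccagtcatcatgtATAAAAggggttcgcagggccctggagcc

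The 3 windows share the same 11 letters. In the 250 bases before the RefSeq start, GGGAATTTCCC stood in 11 of 27025 promoters (0.0407%), and the 3 genes were among these 11, as they had to be, since the letters were found as the longest run that their promoters share. The looser NF-kB consensus stood in 1894 promoters (7.01%), ATAAAA on the gene's strand in 2929 (10.8%), and both motifs in all 3 genes. The AP-1 letters TGANTCA stood in 6.87% of promoters and the STAT letters TTCNNNGAA in 7.18%, searched on both strands, and neither was in these windows of the 3 genes. A match is a matter of letters alone, and a missing match says nothing about a factor.

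Reads from the 3 genes could be told apart to unequal degrees. The longest stretch that the Cxcl1 transcripts had in common with those of either other gene was 23 bases. Cxcl2 and Cxcl3 transcripts shared a stretch of 157 bases. Shared windows make up 5.35% of the 50-base windows of the longest Cxcl2 transcript and 3.13% of those of the longest Cxcl3 transcript. The exons of Cxcl3 together cover 3498 bases and its longest protein-coding transcript 1016. The share over that shorter transcript was not computed and may be larger. How the authors treated reads with more than 1 match is not given in the sources used here. The ratio of Cxcl3 to Cxcl2 counts varied widely between libraries. There were 0.173 Cxcl3 counts per 100 Cxcl2 counts in an Il-1b library and 202 to 261 in MmSCs on day 1. In CD45+ cells on day 1 there were 4.58 to 6.42. Cxcl3 and Cxcl2 counts are uncertain to the extent of these shared stretches.

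Library totals ran from 2252373 to 8408842 counts. Levels are given in CPM, counts scaled to a common library size adjusted by edgeR's TMM method. Within the sorted compartments, Ptprc (CD45) stood at 438 to 886 CPM in CD45+ libraries and at no more than 10.5 CPM in the others. In MuSC libraries of day 1, Pdgfra, a stromal marker, had 304 counts in replicate 2, 196 in replicate 3 and 2 in replicate 1. The 6 MmSC markers together stood at 327 to 783 CPM there and at 548 to 802 CPM in day 0 MuSCs. In replicate 1 of the day 1 CD31+ cells, Ptprc had 67 counts and Il1b 354, against 1 and 0 Il1b counts in the others. Results for MuSCs and CD31+ cells on day 1 that rest on these libraries are given with and without them. In sorted bulk libraries, fewer cells of a type and less RNA per cell cannot be told apart.

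Cxcl1 was expressed by resting MmSCs and rose under every cytokine injected. The 2 PBS libraries held 19.6 and 16.0 CPM. Il-1b gave 3089 and 2814 CPM, TNFa 307 and 350.3, Il-17A 149 and 133, and Osm 108 and 87.9. No library of any cytokine fell into the PBS range, and the 4 single cytokines did not overlap each other. Against PBS, Cxcl1 rose 165-fold with Il-1b (log2 7.37 ± 0.25 SE, adjusted p = 7.53e-14, quasi-likelihood test of edgeR, Benjamini-Hochberg adjusted over every gene tested, as throughout). It rose 18.4-fold with TNFa (4.21 ± 0.22, adjusted p = 7.19e-11), 7.94-fold with Il-17A (2.99 ± 0.22, adjusted p = 1.83e-07) and 5.48-fold with Osm (2.46 ± 0.21, adjusted p = 1.74e-08). The share of the 15965 tested genes that rose was 19.5% with Il-1b, 10.2% with TNFa, 2.84% with Il-17A and 18.9% with Osm. Cxcl1 was thus among a small share with Il-17A and among a large share with the other cytokines. These comparisons all use the same 2 PBS libraries.

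Cxcl2 was at 0 counts in both PBS libraries, and only some of the cytokines brought it above the floor, set at 3 counts in a library. With Il-1b it reached 192 and 196 CPM, and with TNFa 15.9 and 25.8 CPM. Osm left it at 2 and 1 counts and Il-17A at 1 and 0 counts, no higher than the floor. Against that floor in PBS, Cxcl2 was at least 491-fold higher with Il-1b (adjusted p = 7.13e-12) and at least 52.3-fold higher with TNFa (adjusted p = 2.69e-08). Both sets of libraries were above every PBS, Osm and Il-17A library. The cytokines that raised Cxcl1 by 5.48 and 7.94-fold thus left Cxcl2 at counts where no change was detectable at this depth.

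Cxcl3 was also at 0 counts in both PBS libraries, with Osm and with Il-17A. TNFa gave 1 and 2 counts. The 2 Il-1b libraries disagreed: replicate 1 held 378 counts (66.8 CPM) and replicate 2 held 2 (0.339 CPM), although their Cxcl1 and Cxcl2 levels lay close together. The neighbouring gene Cxcl5 showed a gap of the same direction, 11124 against 1308 counts. With the counts of both Il-1b libraries pooled and PBS set at the floor, Cxcl3 was at least 83.3-fold higher with Il-1b. Nearly all of these counts were in replicate 1, and replicate 2 was itself under the floor. The joint fit called the rise (adjusted p = 0.00125). Without replicate 1 the test was lost (adjusted p = 0.151), so the rise of Cxcl3 with Il-1b alone rests on 1 library.

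Direct tests between cytokines placed Il-1b above TNFa for Cxcl1 and Cxcl2 by similar factors. Cxcl1 was 8.99-fold higher with Il-1b than with TNFa (3.17 ± 0.20, adjusted p = 6.58e-09) and Cxcl2 9.40-fold higher (3.22 ± 0.27, adjusted p = 4.65e-07), where 7.27% of genes were higher. Il-1b also gave 30.2-fold more Cxcl1 than Osm and 20.8-fold more than Il-17A, where 5.70% and 15.9% of genes were higher. For Cxcl2 the same comparisons rest on 3 Osm counts and 1 Il-17A count: the ratios were 911 (95% counting interval 311 to 4419) and 2309 (414 to 91248). TNFa gave 2.32-fold more Cxcl1 than Il-17A (1.22 ± 0.19, adjusted p = 0.000257), where 5.07% of genes were higher. Cxcl3 was higher with Il-1b than with TNFa by a ratio of 160 (54.4 to 781; adjusted p = 0.00845). Without the first Il-1b library that difference was 0.67 on the log2 scale (adjusted p = 0.864), and leaving out either TNFa library also ended the call (adjusted p = 0.0904 and 0.0761). Counting intervals cover counting error alone.

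**Figure D1:**
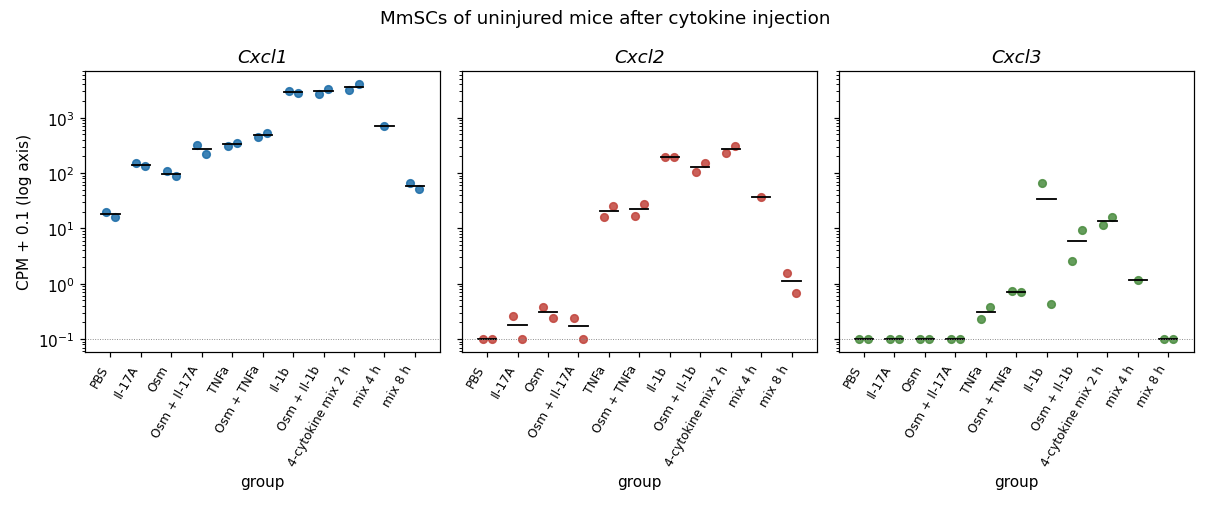
Level of each gene in MmSCs of injected mice, in CPM on a log axis with 0.1 added (dotted line at 0 counts), 1 point per library and a bar at the group mean. The PBS libraries sit at 19.6 and 16.0 CPM for Cxcl1 and at 0 for Cxcl2 and Cxcl3, and the Il-1b libraries stand close together for Cxcl1 and Cxcl2 but at 66.8 and 0.339 CPM for Cxcl3.

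Adding Osm to another cytokine raised Cxcl1 beside Il-17A and, less firmly, beside TNFa, and no other addition passed the test for any of the 3 genes with every library in the fit. With Osm and Il-17A, Cxcl1 stood at 326 and 222 CPM, above both Il-17A libraries (149 and 133). Cxcl1 was 1.93-fold higher with the pair than with Il-17A (0.96 ± 0.19, adjusted p = 0.000689), where 16.2% of genes were higher. Beside TNFa, Osm gave 441 and 532 CPM, also above both TNFa libraries. That difference was 0.56 ± 0.19 on the log2 scale (adjusted p = 0.0423, with 11.2% of genes higher), and leaving out any 1 of the 4 libraries ended the call (adjusted p 0.0518 to 0.251). Beside Il-1b, Cxcl1 stood at 2660.2 and 3362 CPM and overlapped Il-1b alone (0.03 ± 0.19, adjusted p = 0.958), where 7.03% of genes changed in either direction.

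Cxcl2 with Osm and Il-1b stood at 105 and 149 CPM, below both Il-1b libraries, but the difference did not pass the test (-0.61 ± 0.24, adjusted p = 0.151). With Osm and TNFa it stood at 16.6 and 27.9 CPM, within the spread of TNFa alone (0.08 on the log2 scale, adjusted p = 0.882). The pair of Osm with Il-17A left Cxcl2 at 1 and 0 counts and Cxcl3 at 0 and 0. Cxcl3 with Osm and Il-1b had 11 and 45 counts, between the 2 discordant Il-1b libraries (-2.50 ± 1.11, adjusted p = 0.216). Without Il-1b replicate 2 this difference passed as lower with the pair (-3.50, adjusted p = 0.00209), and without replicate 1 it turned to 4.04 (adjusted p = 0.0508). It had 4 and 3 counts with Osm and TNFa, against 1 and 2 with TNFa alone (ratio 3.05, counting interval 0.696 to 18.3, adjusted p = 0.713).

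Against PBS, each pair raised Cxcl1: 170-fold with Osm and Il-1b (adjusted p = 3.10e-14), 26.9-fold with Osm and TNFa (adjusted p = 1.95e-12) and 15.3-fold with Osm and Il-17A (adjusted p = 2.56e-11). The shares of all genes that rose were 21.7%, 20.5% and 19.4%. Cxcl2 was at least 325-fold higher with Osm and Il-1b and at least 54.5-fold higher with Osm and TNFa (adjusted p = 4.74e-09). Cxcl3 was at least 15.2-fold higher with Osm and Il-1b (adjusted p = 0.0142), a call that ended without replicate 2 of the pair (adjusted p = 0.103) or without either PBS library (0.0720 and 0.0687).

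All 4 cytokines together gave a fast and short response. At 2 h Cxcl1 stood at 3163 and 4136 CPM, at 4 h at 720.0 CPM in the 1 library, and at 8 h at 66.3 and 50.5 CPM. Cxcl2 stood at 230.5 and 312 CPM, then 37.3, then 1.44 and 0.587 CPM. Cxcl3 went from 11.4 and 16.1 CPM to 1.07 CPM (9 counts) and then to 0 in both libraries. No 2 time points overlapped for any of the 3 genes, and the order 2 h, 4 h, 8 h held for each. At 2 h, against PBS, Cxcl1 was 203-fold higher (7.68 ± 0.26, adjusted p = 2.35e-14), Cxcl2 at least 682-fold (adjusted p = 1.23e-12) and Cxcl3 at least 34.5-fold (adjusted p = 0.00364), where 20.5% of genes rose.

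The 3 genes fell back to different degrees. At 4 h Cxcl1 was still 40.4-fold above PBS (adjusted p = 3.31e-12) and Cxcl2 at least 94.4-fold (adjusted p = 1.55e-09), while Cxcl3 did not pass the test (at least 2.72-fold, adjusted p = 0.203). Here 19.6% of genes rose, and the lone 4 h library is assumed to vary like the other groups. By 8 h Cxcl1 was 3.32-fold above PBS (1.72 ± 0.21, adjusted p = 2.89e-06), where 15.6% of genes rose. Cxcl2 was at least 2.67-fold above PBS on 12 and 4 counts (adjusted p = 0.00758), and this call ended without replicate 1 at 8 h (adjusted p = 0.0873) or PBS replicate 1 (0.0502). From 2 h to 8 h, Cxcl1 dropped 61.2-fold (-5.96 ± 0.23, adjusted p = 8.20e-13), Cxcl2 255-fold (-7.99 ± 0.38, adjusted p = 1.15e-11) and Cxcl3 at least 34.4-fold (adjusted p = 0.00427), where 18.7% of genes fell.

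At 2 h the mixture of 4 cytokines did not pass the test against Il-1b alone for any of the 3 genes, while 12.4% of all genes differed. The differences were 0.31 ± 0.19 for Cxcl1 (adjusted p = 0.327), 0.48 ± 0.24 for Cxcl2 (adjusted p = 0.211) and -1.29 ± 1.03 for Cxcl3 (adjusted p = 0.488). For Cxcl3 each Il-1b library taken alone gave a call, in opposite directions. Without replicate 1 the mixture was higher by 5.27 (adjusted p = 0.0127), and without replicate 2 it was lower, at -2.28 (adjusted p = 0.0144). Ordered by mean level at 2 h, Cxcl1 went from the mixture through Osm with Il-1b and Il-1b to Osm with TNFa. Osm with Il-1b overlapped the mixture and Il-1b, and those did not overlap each other. TNFa and Osm with Il-17A followed Osm with TNFa and overlapped each other. Il-17A, Osm and PBS came last, without overlap.

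The regulators of these genes formed a list of 11, covering NF-kB subunits and its inhibitors, Cebp factors and proteins that bind or cut chemokine mRNA. The number of the 11 that rose was 11 with the mixture at 2 h, 9 with Il-1b, 8 with TNFa, 6 with Osm and 3 with Il-17A, while 1 fell with Osm and 1 with Il-17A. Over all tested genes 20.5%, 19.5%, 10.2%, 18.9% and 2.84% rose, and 2468 of 15965 fell with Osm and 337 with Il-17A. The list's median log2 changes were 3.31, 2.61, 1.34, 0.65 and 0.16, beside medians of -0.06, -0.01, 0.01, -0.05 and -0.02 over all genes. With Il-17A, Nfkbiz, an IkB-family coactivator of NF-kB target genes, rose by 1.86 ± 0.26. Nfkbia, the NF-kB inhibitor and an early target of it, rose by 1.25 ± 0.18, and Zc3h12a, an RNase that degrades chemokine mRNA, by 1.40 ± 0.36. With Osm, Nfkbiz rose by 2.66 ± 0.26 and Tnfaip3, the NF-kB-induced deubiquitinase A20, fell by 1.54 (adjusted p = 0.00399). Tnfaip3 rose by 5.43 ± 0.35 with Il-1b and 4.17 ± 0.33 with TNFa.

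The 14 receptors and adapters upstream all passed the filter on low counts in the cytokine experiment, although 1 of them was at 0 in both libraries of some groups. Of the 14, 9 rose with the mixture at 2 h, 8 with Il-1b, 6 with TNFa, 9 with Osm and 1 with Il-17A. The shares of all tested genes that rose were 20.5%, 19.5%, 10.2%, 18.9% and 2.84%, so the 1 of 14 with Il-17A was close to its background. In addition 1 fell with Osm and 2 fell with Il-17A, where 2468 and 337 of the 15965 tested genes fell. Il1r1, the signalling receptor of Il-1b, rose by 1.88 ± 0.20 with Osm and by 1.52 ± 0.20 with Il-1b. Il17ra, the shared Il-17 receptor subunit, rose by 2.94 ± 0.15 with Osm and 2.45 ± 0.15 with Il-1b, and was at -0.27 ± 0.15 with Il-17A (adjusted p = 0.328). Osmr, the Osm receptor, rose with each of the 4, by 2.83 ± 0.16 with Osm, 2.77 ± 0.16 with Il-1b, 2.30 ± 0.16 with TNFa and 0.92 ± 0.15 with Il-17A. Cxcl5, another Cxcr2 ligand, rose with Il-1b (11.62 ± 1.26) and was at 4.42 ± 1.67 with TNFa (adjusted p = 0.0844).

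A marker list of another cell type was higher with Il-1b and TNFa than with PBS, as Cxcl1 and Cxcl2 were. With Osm the list was lower than with PBS, while Cxcl1 rose. The 5 satellite cell markers summed to 46.8 to 57.4 CPM with PBS, 588 to 630 CPM with Il-1b, 299 to 311 CPM with TNFa, 68.2 to 78.6 CPM with Il-17A and 24.6 to 39.9 CPM with Osm. The mixture at 2 h gave 183 to 241 CPM and Osm with Il-1b 212 to 224 CPM. Both lay below TNFa alone, and Cxcl1 was higher in both than with TNFa. With Il-1b 2 of the 5 were tested and 1 rose, Vcam1 (3.67 ± 0.21), where 19.5% of all tested genes rose. The defining marker Pax7 had at most 1 count in any PBS, Il-1b or TNFa library. Vcam1 is also known as a target of NF-kB. The part of these markers in the cytokine results was not tested.

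One day after cardiotoxin, Cxcl1 was highest in a different sorted population from Cxcl2 and Cxcl3. Cxcl1 was highest in MmSCs, where it went from 38.7, 39.8 and 95.8 CPM on day 0 to 583, 562 and 447 CPM. MuSCs went from 17.7, 20.3 and 34.7 CPM to 37.4, 109 and 73.2 CPM. CD45+ cells held 2, 0 and 0 counts on day 0 and 66.1, 65.1 and 22.6 CPM on day 1. CD31+ cells went from 3.03, 2.87 and 4.79 CPM to 13.0, 20.4 and 12.0 CPM. Within each compartment every day 1 library was above every day 0 library. The day 1 MmSC libraries were above all others.

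Cxcl1 rose 9.53-fold in MmSCs (3.20 ± 0.41, adjusted p = 1.41e-06), where 18.2% of the 16374 tested genes rose. It rose 4.22-fold in CD31+ cells (2.09 ± 0.57, adjusted p = 0.00944, 14.2% of genes; 2.19 and 0.0148 without replicate 1) and 2.92-fold in MuSCs (1.58 ± 0.41, adjusted p = 0.00375, 21.4% of genes). In CD45+ cells, starting from 2 counts in all, the ratio was 278 (counting interval 76.6 to 2300, adjusted p = 3.44e-07), where 15.9% of genes rose. Pdgfra had 0, 0 and 27 counts in the 3 day 1 CD45+ libraries, and Cxcl5, which MmSCs make, 0, 19 and 46, while Cxcl1 had 256, 261 and 95. Their part in the CD45+ result for Cxcl1 was not tested. The MuSC call ended when replicate 1, with 2 Pdgfra counts, was taken as the only day 1 MuSC library, an alternative added after seeing the data in which the lone library is assumed to vary like the other groups (0.45 ± 0.50, adjusted p = 0.585).

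Cxcl2 was highest in CD45+ cells. They held 53.8, 18.2 and 119 CPM on day 0 and 2856, 4304 and 2687 CPM on day 1. MmSCs and MuSCs held 0 counts in all 6 day 0 libraries, and on day 1 MmSCs held 8.12, 11.9 and 9.92 CPM and MuSCs 1.37, 6.88 and 0.928 CPM. CD31+ cells went from 0, 2 and 0 counts to 22.0, 13.8 and 6.62 CPM. Every CD45+ library of day 1 was above all libraries of the other compartments.

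Cxcl2 rose 51.8-fold in CD45+ cells (5.69 ± 0.59, adjusted p = 8.55e-07), from a level that already differed several-fold between the day 0 libraries. In MmSCs it was at least 16.1-fold higher on day 1 (adjusted p = 0.000620). In CD31+ cells the ratio was 81.5 (counting interval 22.3 to 677, adjusted p = 0.00137), and the rise held without replicate 1, the library with Il1b and Ptprc counts (log2 5.66, adjusted p = 0.00636). In MuSCs it was at least 4.14-fold higher (adjusted p = 0.0277). This last call ended when replicate 2 of day 1 (adjusted p = 0.129) or any 1 day 0 library (0.0769, 0.0502 and 0.0757) was left out, and with replicate 1 as the only day 1 library (0.204).

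Cxcl3 was nearly silent on day 0, with 1 count in the 12 libraries. On day 1 it stood at 131, 276 and 168 CPM in CD45+ cells, at 14.9, 45.7 and 26.5 CPM in MuSCs and at 21.2, 26.8 and 20.01 CPM in MmSCs. CD31+ cells held 4, 0 and 1 counts, at or near the floor. The CD45+ range stood apart from the others, and the MuSC and MmSC ranges overlapped. Cxcl3 rose in CD45+ cells by a ratio of 2111 (counting interval 378 to 83409, adjusted p = 2.10e-08), was at least 36.9-fold higher in MmSCs (adjusted p = 5.69e-07) and at least 41.2-fold higher in MuSCs (adjusted p = 4.22e-07). With MuSC replicate 1 alone on day 1, assumed to vary like the other groups, Cxcl3 passed (9.08 ± 1.01, adjusted p = 9.17e-06).

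**Figure D2:**
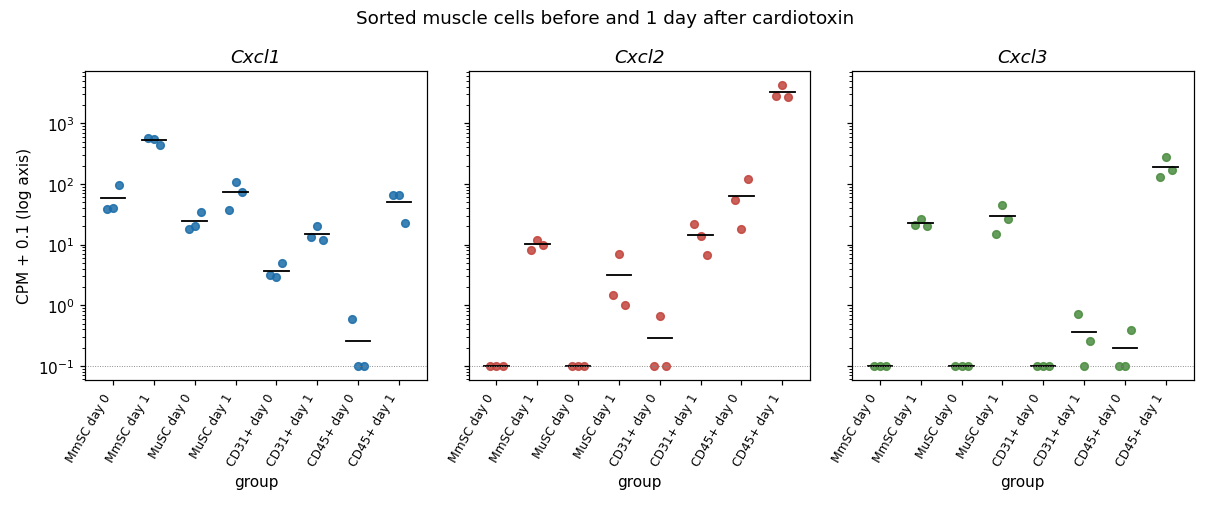
Level of each gene in the 4 sorted compartments on day 0 and 1 day after cardiotoxin, in CPM on a log axis with 0.1 added (dotted line at 0 counts), 1 point per library and a bar at the mean. MmSCs of day 1 lead for Cxcl1 (447 to 583 CPM) and CD45+ cells of day 1 for Cxcl2 (2687 to 4304 CPM) and Cxcl3 (131 to 276 CPM).

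Tested directly on day 1 between MmSCs and CD45+ cells, the level of Cxcl1 differed in the opposite direction to those of Cxcl2 and Cxcl3. Cxcl1 was 10.6-fold higher in MmSCs (3.38 ± 0.41, adjusted p = 2.71e-07), where 33.7% of genes were higher. Cxcl2 was 333-fold lower in MmSCs (-8.37 ± 0.68, adjusted p = 3.66e-09) and Cxcl3 8.48-fold lower (-3.08 ± 0.38, adjusted p = 2.41e-06), where 27.9% of genes were lower. The order of Cxcl3 held within this experiment only. Day 1 MmSCs of Il1b-WT mice held 409 to 426 CPM of Cxcl3, above the 131 to 276 CPM of these CD45+ cells. Their Cxcl1 (5637 to 6694 CPM) was above and their Cxcl2 (532 to 581 CPM) below the CD45+ levels. The 2 experiments were normalised separately and were not compared in a test. Against CD31+ cells, MmSCs held 36.3-fold more Cxcl1 (5.14 ± 0.46, adjusted p = 2.84e-09) and 79.8-fold more Cxcl3 (6.20 ± 0.64, adjusted p = 4.59e-07), where 23.8% of genes were higher. The difference in Cxcl2 was -0.51 ± 0.59 (adjusted p = 0.486). Without replicate 1 of the CD31+ cells the differences were 5.06 for Cxcl1 (adjusted p = 1.09e-07), 7.64 for Cxcl3 (adjusted p = 2.28e-06) and -0.01 for Cxcl2.

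Against MuSCs, MmSCs held 7.40-fold more Cxcl1 (2.86 ± 0.40, adjusted p = 6.11e-06), where 16.8% of genes were higher. Cxcl2 was at 1.75 ± 0.70 (adjusted p = 0.0620), and passed without MuSC replicate 2 (3.10, adjusted p = 0.00817). Cxcl3 was at -0.35 ± 0.37 (adjusted p = 0.507). With MuSC replicate 1 alone the Cxcl1 difference was 3.93 (adjusted p = 6.94e-05) and that of Cxcl3 turned to 0.71 (adjusted p = 0.356).

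The injury response of MmSCs was set against that of each other compartment. Cxcl2 and Cxcl3 were at 0 counts in MmSCs on day 0, so their fitted differences have no usable size. Against CD45+ cells they did not pass (adjusted p = 0.556 and 0.863). The rise of Cxcl1 in MmSCs was smaller than that in CD45+ cells by 4.75 on the log2 scale (-4.75 ± 1.22, adjusted p = 0.00571), where the same direction was called for 11.5% of genes. That value rests on the 2 Cxcl1 counts of the day 0 CD45+ libraries. The MmSC response was not shown to differ from that of CD31+ cells (1.11 ± 0.73, adjusted p = 0.372; 12.5% of genes called in either direction; 1.02 and 0.478 without replicate 1 of day 1). Against MuSCs the difference was 1.61 ± 0.56 (adjusted p = 0.0849; 7.64% of genes called). It passed without MmSC day 0 replicate 3 (2.47, adjusted p = 0.00662), without MuSC day 1 replicate 2 (2.01, adjusted p = 0.0371) and with MuSC replicate 1 alone (2.91, adjusted p = 0.0143).

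Per kilobase of transcript the 3 genes can be set beside each other. On day 1, MmSCs held 557 ± 77.4 CPM per kb of Cxcl1 (SD, n = 3), 5.36 ± 1.01 of Cxcl2 and 22.3 ± 3.54 of Cxcl3. CD45+ cells held 53.8 ± 26.1, 1766 ± 478 and 189 ± 74.3. Cxcl1 thus made up 95.2% ± 0.698 of the summed level in MmSCs (SD, n = 3), and Cxcl2 88.1% ± 0.759 in CD45+ cells. MuSCs held 72.1% ± 2.04 Cxcl1 and 26.5% ± 1.17 Cxcl3, the latter above the 3.83% of MmSCs and the 9.26% of CD45+ cells, and the 3 MuSC libraries lay close in this share although their levels differed. In CD31+ cells Cxcl1 made up 67.9% ± 13.5 and Cxcl2 31.0% ± 12.5, and replicate 1, the library with Il1b and Ptprc counts, held 52.4% and 45.3%, against 74.2% and 25.8% in replicate 2 and 77.1% and 21.9% in replicate 3. In MmSCs of mice given the 4 cytokines, Cxcl1 made up 96.0% ± 0.107 at 2 h (SD, n = 2).

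**Figure D3:**
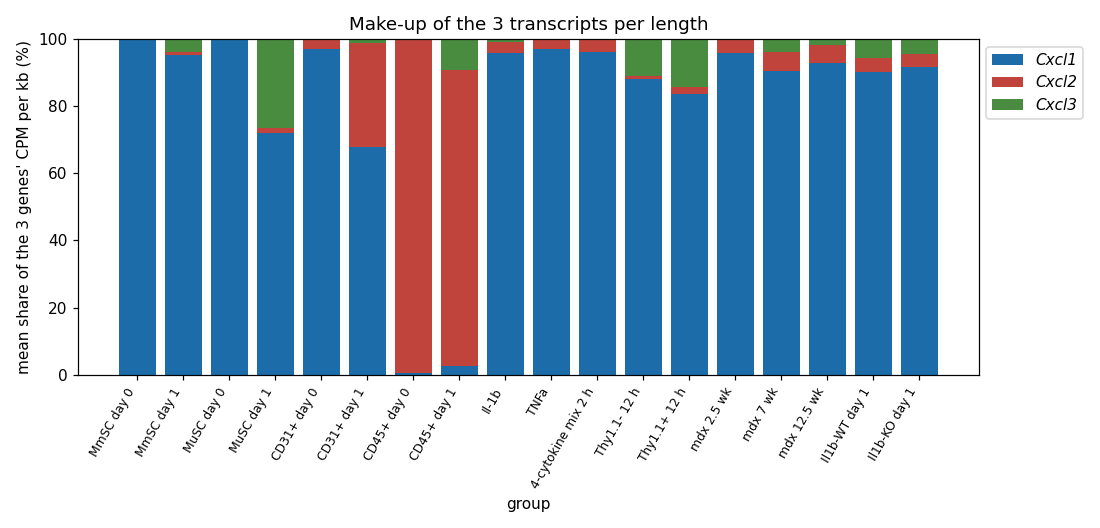
Share of Cxcl1, Cxcl2 and Cxcl3 in their summed level per kilobase, in percent, as the mean over the libraries of each group. Cxcl1 fills 95.2% in day 1 MmSCs and Cxcl2 88.1% in day 1 CD45+ cells.

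The receptor and the inducing cytokines were read in the same libraries. Cxcr2, which neutrophils carry, had 183, 61.3 and 297 CPM in CD45+ cells on day 0 and 843, 1306 and 1048 CPM on day 1 (2.56 ± 0.36, adjusted p = 2.51e-05), and at most 2 counts in any library of the other compartments. The 10 neutrophil markers together rose from 1331 to 3448 CPM on day 0 to 5891 to 9394 CPM on day 1 in CD45+ cells and were at most 22.3 CPM elsewhere, so Cxcl2 and Cxcl3 moved with them. Their part in the CD45+ result was not tested. In MmSCs on day 1, Cxcr2 was at 0 in all 3 libraries and Il1b at 0, 0 and 1 counts.

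Of the 5 inducing cytokine genes, 4 were tested and all 4 rose in CD45+ cells, where 15.9% of all tested genes rose. Il1b rose by 2.52 ± 0.82, Tnf by 4.31 ± 0.25, Osm by 2.89 ± 0.54 and Il1a by 5.65 ± 1.12. In the 6 MmSC libraries of the same experiment, Tnf had at most 2 counts, Il1b at most 1 and Osm 0, which is at or under the floor, and Il1a did not pass the test (-3.89 ± 2.32, adjusted p = 0.197). Il1b stood at 828, 322 and 1449 CPM in CD45+ cells on day 0 and at 3949, 6632 and 4295 CPM on day 1. In MmSCs, 4 of the 11 regulators and 5 of the 14 receptors and adapters rose with injury, where 18.2% of all tested genes rose. From the receptor list 1 gene, Traf6, fell, where 3871 of the 16374 tested genes fell. Il1r1 rose by 0.98 ± 0.25 and Osmr by 1.37 ± 0.28 in MmSCs. Nfkbia rose by 0.91 ± 0.19, and the NF-kB target Tnfaip3 was at -0.38 ± 0.42 (adjusted p = 0.501).

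The Il6 reporter split MmSCs 12 h after cardiotoxin, and each of the 3 chemokines was higher in Thy1.1+ than in Thy1.1- cells of the same replicate number. Cxcl1 stood at 1709, 1707 and 3896 CPM in Thy1.1+ cells and at 1165, 1125 and 1829 CPM in Thy1.1- cells. Cxcl2 stood at 75.7, 74.6 and 279.6 CPM against 39.4, 15.1 and 54.7 CPM. Cxcl3 stood at 379, 354 and 466 CPM against 221, 183 and 96.8 CPM. The groups overlapped for Cxcl1 and not for Cxcl2 or Cxcl3. Without regard to the numbers, the differences were 0.83 ± 0.37 for Cxcl1 (adjusted p = 0.484), 1.98 ± 0.63 for Cxcl2 (adjusted p = 0.354) and 1.26 ± 0.29 for Cxcl3 (adjusted p = 0.276).

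That fit called 0.0% of genes: 0 of 11975 with edgeR, where 1258 had an unadjusted p under 0.05, while DESeq2 called 177. Libraries with the same number deviated together, and a fit with the number as a block called 1286 genes. Whether the numbers mark pairs, apart from replicate 3, which stood apart in both groups, was not tested. In that blocked fit Cxcl1 was higher in Thy1.1+ cells by 0.75 ± 0.11 (adjusted p = 0.000879), Cxcl2 by 1.86 ± 0.22 (adjusted p = 0.000149) and Cxcl3 by 1.31 ± 0.21 (adjusted p = 0.00139). DESeq2, without the block, also called Cxcl2 (1.99, adjusted p = 0.0456) and Cxcl3 (1.27, adjusted p = 0.0107), and not Cxcl1 (0.84, adjusted p = 0.353). Il6, the gene behind the tag, had 381, 381 and 1632 counts in Thy1.1+ cells and 276, 141 and 334 in Thy1.1- cells. Replicate 1 of Thy1.1+ cells also held 71 Il1b, 10 Cxcr2 and 19 Tnf counts, against 3, 0 and 0 in replicate 1 of Thy1.1- cells. Ptprc had at most 3 counts in any of the 6 libraries. The 8 macrophage and monocyte markers together stood at 10.2 to 14.0 CPM in Thy1.1+ and 10.6 to 14.9 CPM in Thy1.1- cells, and the 10 neutrophil markers at 1.52 to 7.51 and 1.25 to 3.42 CPM. Replicate 3 stood apart from the other replicates in both groups: chi-square per degree of freedom was 29.3 to 48.9 in pairs with it and 7.60 and 8.73 in pairs without it. The part of these transcripts and of replicate 3 in the result was not tested. Cxcl3 made up 14.2% ± 3.88 of the summed level per kilobase in Thy1.1+ cells and 10.9% ± 5.48 in Thy1.1- cells (SD, n = 3).

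**Figure D4:**
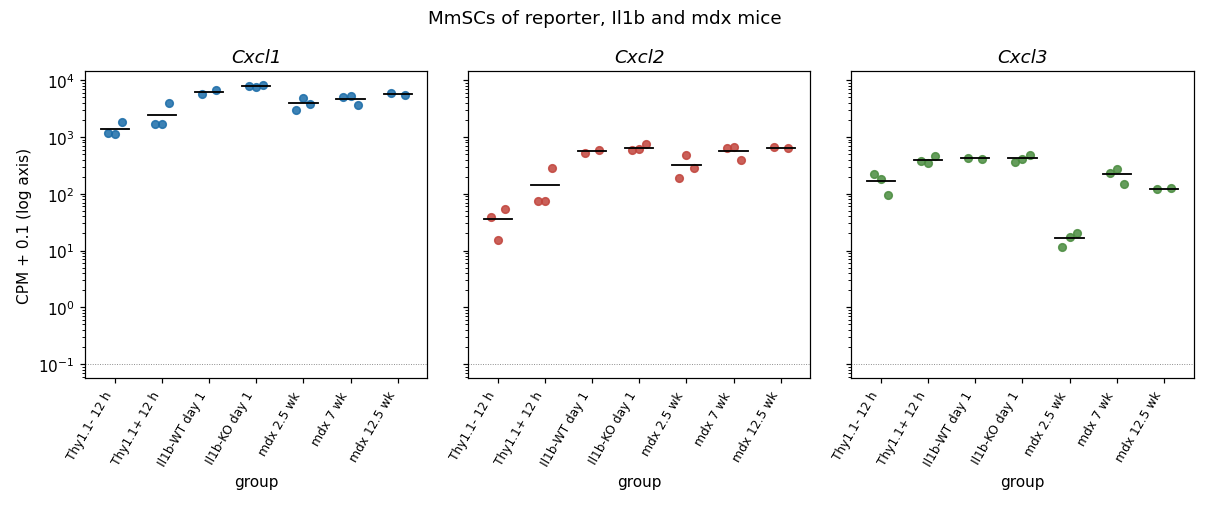
Level of each gene in MmSCs of Il6RD, DMDmdx and Il1b-KO or Il1b-WT mice, in CPM on a log axis with 0.1 added, 1 point per library and a bar at the group mean. Each experiment was normalised on its own. Cxcl3 climbs from 11.6 to 20.1 CPM at 2.5 weeks to 148 to 275 CPM at 7 weeks in DMDmdx mice, and the Il1b-KO and Il1b-WT points lie at 365 to 476 and 409 to 426 CPM.

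None of the 3 chemokines passed the test between MmSCs of Il1b-KO and Il1b-WT mice 1 day after cardiotoxin. Cxcl1 stood at 7759, 7501 and 8263 CPM in Il1b-KO mice and at 5637 and 6694 CPM in Il1b-WT littermates. Cxcl2 stood at 584, 611 and 736 CPM against 532 and 581 CPM, and Cxcl3 at 365, 413 and 476 CPM against 426 and 409 CPM. Every knockout library was above both wild-type libraries for Cxcl1 and Cxcl2, and the ranges overlapped for Cxcl3. The differences were 0.35 ± 0.09 (adjusted p = 0.117), 0.21 ± 0.11 (adjusted p = 0.506) and 0.00 ± 0.11 (adjusted p = 0.999), and 1.21% of genes were called in either direction. Without Il1b-WT replicate 2 the Cxcl1 difference passed, as an increase in the knockout (0.48, adjusted p = 0.0156). Il1b itself had 0, 0 and 1 counts in knockout MmSCs and 2 and 5 in wild-type MmSCs, too few to check the genotype labels.

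Whole muscle on day 7 held almost none of the 3 transcripts. Cxcl1 had 12, 4 and 2 counts under anti-Cxcl5 and 7, 0 and 2 under IgG. Cxcl2 had at most 3 counts and Cxcl3 at most 2 in any library. None of the 3 passed the filter on low counts, so the antibody's effect on them was not tested, and no difference was detectable at this depth.

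In DMDmdx mice, Cxcl1 and Cxcl2 were high in MmSCs at every age, and Cxcl3 was the gene that changed most among the 3. Cxcl3 stood at 11.6, 17.2 and 20.1 CPM at 2.5 weeks, at 234, 275 and 148 CPM at 7 weeks and at 119.6 and 126 CPM at 12.5 weeks, with no overlap between ages. It rose 13.8-fold from 2.5 to 7 weeks (3.75 ± 0.23, adjusted p = 3.49e-08), where 21.9% of the 13160 tested genes rose. From 7 to 12.5 weeks it was lower by 0.84 on the log2 scale (-0.84 ± 0.23, adjusted p = 0.0434), where 2.39% of genes fell. Leaving out either 12.5-week library or replicate 1 or 2 at 7 weeks ended that call (adjusted p 0.162 to 0.253). From 2.5 to 12.5 weeks Cxcl3 rose by 2.91 ± 0.25 (adjusted p = 1.25e-06), where 13.9% of genes rose.

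Cxcl2 stood at 191, 472 and 281 CPM at 2.5 weeks, at 646, 656 and 391 CPM at 7 weeks and at 666 and 628 CPM at 12.5 weeks. The ranges of 2.5 and 7 weeks overlapped. Cxcl2 rose from 2.5 to 7 weeks by 0.84 ± 0.26 (adjusted p = 0.0156) and to 12.5 weeks by 1.04 ± 0.28 (adjusted p = 0.0139). Both calls were near the threshold: DESeq2 gave adjusted p values of 0.0706 and 0.0691. The first ended without replicate 1 or 3 at 2.5 weeks (0.0502 and 0.0644) or replicate 1 or 2 at 7 weeks (0.0660 and 0.0719). The second ended without either 12.5-week library (0.102 and 0.0663) or replicate 3 at 2.5 weeks (0.0579). From 7 to 12.5 weeks it was at 0.20 (adjusted p = 0.746).

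Cxcl1 stood at 3032, 4912 and 3837 CPM, then 5078, 5225 and 3647 CPM, then 5911 and 5486 CPM. The youngest and the oldest group did not overlap, and the middle group overlapped the youngest. The difference from 2.5 to 12.5 weeks was 0.54 ± 0.19 (adjusted p = 0.0455). It ended when replicate 1 or 3 at 2.5 weeks or either 12.5-week library was left out (adjusted p 0.125 to 0.231). From 2.5 to 7 weeks it was 0.24 ± 0.17 (adjusted p = 0.256), and it passed without replicate 2 at 2.5 weeks (0.44, adjusted p = 0.0158). From 7 to 12.5 weeks it was 0.29 (adjusted p = 0.400).

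Other transcripts moved with age in the DMDmdx libraries. Egr1, an early gene that also responds to tissue digestion, stood at 1646, 858 and 1401 CPM at 2.5 weeks and at 253 to 349 CPM at 7 weeks. The 8 macrophage and monocyte markers together went from 25.6 to 39.5 CPM at 2.5 weeks to 13.3 to 17.4 CPM at 7 weeks and 10.5 to 11.6 CPM at 12.5 weeks, opposite to Cxcl3 from 2.5 weeks on to either later age and in the same direction from 7 to 12.5 weeks. The 5 satellite cell markers summed to 32.4 to 41.5 CPM at 2.5 weeks, 460 to 517 CPM at 7 weeks and 285 to 356 CPM at 12.5 weeks, the order of Cxcl3. Of these 5, 2 were tested and 1 rose from 2.5 to 7 weeks, where 21.9% of all tested genes rose. It was Vcam1, an adhesion molecule (4.36 ± 0.25), while the defining marker Pax7 had at most 2 counts in any DMDmdx library. The 4 mural cell markers summed to 54.1 to 87.4, then 168 to 214, then 151 to 154 CPM. Of the 4, 2 rose from 2.5 to 7 weeks, beside the same 21.9% of all tested genes. The part of the early gene and of these marker lists in the age results was not tested. Cxcl5 rose by 3.80 ± 0.42 from 2.5 to 7 weeks (adjusted p = 6.79e-06).

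**Figure D5:**
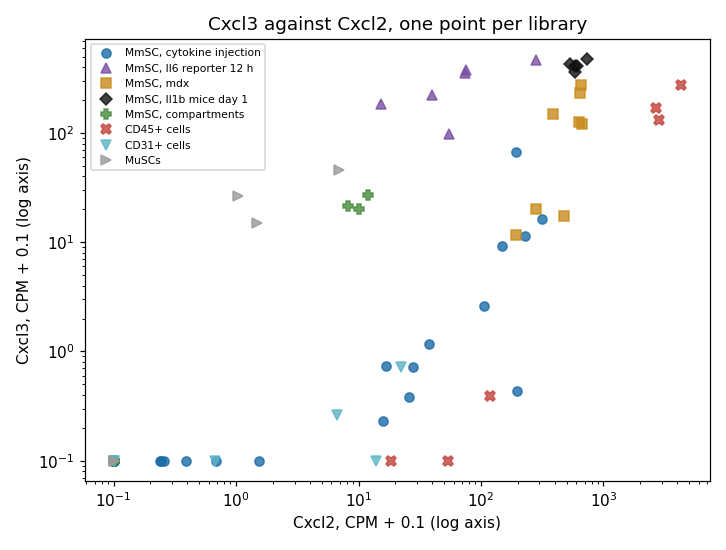
Cxcl3 against Cxcl2 in each library, both in CPM with 0.1 added on log axes, sorted cells only, with MmSC experiments, CD45+, MuSC and CD31+ libraries marked apart. Points do not follow 1 line: CD45+ libraries of day 1 hold 4.58 to 6.42 Cxcl3 counts per 100 Cxcl2 counts and MmSC libraries of day 1 hold 202 to 261.

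The balance of Cxcl3 to Cxcl2 within MmSCs varied from setting to setting. Cxcl3 counts per 100 Cxcl2 counts were 4.93 and 5.17 with the 4 cytokines at 2 h, 34.8 and 0.173 in the 2 Il-1b libraries, 62.6 to 80.1 in the Il1b mice, 167 to 1213 in the Il6RD mice and 202 to 261 on day 1 of the injury experiment. In DMDmdx mice they were 3.65 to 7.14 at 2.5 weeks, 36.3 to 41.9 at 7 weeks and 17.9 to 20.02 at 12.5 weeks. The counts of the 2 genes thus came close to each other or crossed after injury, and Cxcl2 stayed far ahead in the 2.5-week DMDmdx libraries and with the 4 cytokines at 2 h.

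Across the means of all 28 groups, on log2 of CPM with 1 added, Cxcl2 and Cxcl3 resembled each other (Pearson's r = 0.80) more than Cxcl1 resembled Cxcl2 (0.67) or Cxcl3 (0.69). These values are descriptions over groups that share experiments, libraries' depth and cell types. Among 12282 genes, those most like Cxcl1 were Slc39a6 (0.93), Has1 (0.92), Tnfaip6 (0.91), Il6 (0.91) and Ugdh (0.91). Has1 and Ugdh make hyaluronan and its precursor, and Tnfaip6 binds hyaluronan. Most like Cxcl2 were Slc7a11 (0.93), the cystine transporter, Rasa2 (0.90), Gadd45b (0.89), Egr3 (0.88) and Ell2 (0.88). Most like Cxcl3 were Serpinb2 (0.89), Ell2 (0.85), Ttc39b (0.85), Atf1 (0.84) and Eif4e (0.84).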

How the data were processed

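RNA-seq libraries of sorted cells (1000 cells each) and of whole muscle (2 ng of RNA) were aligned with STAR 2.7.3a to mm10 (GRCm38) and counted with featureCounts, per the submitters' processing notes. The table the authors deposited holds raw gene counts. The sources used here give no annotation, strand setting or treatment of multiply matching reads. The 3 genes and all lists were chosen with earlier results of these data known.

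Groups were taken from the sample titles. Each of the 6 experiments was fitted alone over all its groups in edgeR 4.0.16 (R 4.3.3): TMM scaling after filterByExpr at a minimum count of 10, glmQLFit and glmQLFTest, Benjamini-Hochberg adjustment over all genes tested, called at an adjusted p under 0.05. SE is the fold change divided by the root of F. Folds against a group at 0 use a floor of 3 counts per library and are lower bounds. Ratios resting on 1 to 3 counts carry exact 95% conditional binomial intervals. Levels per kilobase use the longest protein-coding transcript. The scripts were tested on simulated counts.

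Named genes were the 3 genes, the list genes and the 5 genes most like each across the groups (Pearson's r, log2 of CPM with 1 added, at least 10 CPM in a group). In the reporter experiment the deviations of same-numbered libraries correlated at 0.358, 0.392 and 0.618. The numbers from the titles were therefore used as a block, and blocked values stand beside that result. Whether the numbers mark true pairs was not tested, and replicate 3 stood apart in both groups. Replicates differed by more than sampling noise in all 57 pairs (chi-square per degree of freedom 3.94 to 48.9). Depth was 2252373 to 8408842 counts. Alternatives were DESeq2 1.42.0, its size factors, no filter, the contrast's groups alone, a replicate block, leaving out each library and, added after seeing the data, MuSC day 1 from replicate 1.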

Additional observations from a re-analysis of the deposited data

Results flagged for a closer look

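The injury response of Cxcl1 differed between MmSCs and CD45+ cells in a test of the difference itself: the log2 change in MmSCs minus that in CD45+ cells was -4.75 ± 1.22 (edgeR, adjusted p = 0.00571). MmSCs went from 58.1 to 531 CPM on average and CD45+ cells from 0.161 to 51.2 CPM, so the larger fold belonged to the cells with the lower level on both days. The day 0 level of CD45+ cells rests on 2 counts in 3 libraries.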

How the results depend on the processing

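Of 84 tests of the 3 genes, 54 kept their direction and their side of the threshold under every alternative run and 30 did not in at least 1. DESeq2 kept 79 of 84, its size factors in edgeR 83 of 84, the contrast's groups alone 64 of 67, no filter 72 of 84, a replicate block 79 of 84 and leaving out 1 library 363 of 415. The causes of the changes were not tested beyond what each alternative removes.

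Under DESeq2, Cxcl2 (1.99) and Cxcl3 (1.27) passed in Thy1.1+ cells, and Cxcl2 in DMDmdx mice did not pass at 7 weeks (0.84) or 12.5 weeks (1.03) against 2.5 weeks. The near-zero Cxcl3 difference in Il1b-KO mice turned to -0.0014 under DESeq2 and its size factors, to -0.0021 without the filter and to -0.10 with the block. With the contrast's groups alone, Cxcl2 passed in MmSCs against MuSCs (1.79), as did the Cxcl1 response against that of MuSCs (1.90), and Cxcl1 at 12.5 against 2.5 weeks did not (0.54). Without the filter these passed: Cxcl3 with the mixture at 4 h (5.86), Cxcl3 with Osm and TNFa (5.07), Cxcl3 with Osm and Il-1b against Il-1b (-2.50), Cxcl2 in MmSCs against MuSCs (1.82), the Cxcl1 responses against CD31+ cells (1.22) and MuSCs (1.75), the 3 genes in Thy1.1+ cells (0.83, 1.98 and 1.25), Cxcl1 at 7 against 2.5 weeks (0.30) and Cxcl1 in Il1b-KO mice (0.34). With the replicate block the 3 genes passed in Thy1.1+ cells (0.75, 1.86 and 1.31) and Cxcl1 at 12.5 against 2.5 weeks did not (0.47). The block changed no other call. Outside the reporter experiment, same-numbered libraries shared only a number (median correlation of deviations -0.04 to 0.03). With MuSC replicate 1 as the only day 1 MuSC library, Cxcl1 (0.45) and Cxcl2 (5.66) did not pass in MuSCs, the response difference did (2.91), and Cxcl3 in MmSCs against MuSCs turned to 0.71.

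Leaving out 1 library at a time, the log2 changes ranged as follows. Cxcl1 ran from 0.23 to 0.48 in Il1b-KO mice, -0.15 to 0.19 with Osm added to Il-1b, 0.42 to 0.69 with Osm added to TNFa, 1.24 to 2.47 for the response against MuSCs, 0.35 to 0.72 at 12.5 and 0.076 to 0.44 at 7 against 2.5 weeks. Cxcl2 ran from 1.29 to 3.10 in MmSCs against MuSCs, -0.32 to 0.45 with Osm added to TNFa, 5.51 to 7.31 in MuSCs after injury, 0.75 to 1.44 at 12.5 and 0.57 to 1.26 at 7 against 2.5 weeks, -0.0097 to 0.32 at 12.5 against 7 weeks and 4.99 to 6.28 with the mixture at 8 h. Cxcl3 ran from 4.25 to 11.79 with Il-1b against PBS, Osm or Il-17A, 0.67 to 8.22 against TNFa, -3.74 to 4.04 with Osm added to Il-1b, 7.06 to 8.95 with that pair against PBS, -2.28 to 5.27 for the mixture against Il-1b, -0.098 to 0.090 in Il1b-KO mice, -0.66 to 0.13 in MmSCs against MuSCs and -1.05 to -0.65 at 12.5 against 7 weeks.

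Counts of genes called moved by over 1.5 times with the contrast's groups alone for Il-17A against PBS (790 to 1210; DESeq2 1220), Il-1b against TNFa (1649 to 602), Osm added to Il-1b (1122 to 411), the mixture against Il-1b (1984 to 730) and 12.5 against 7 weeks (777 to 2027). They moved from 146 to 248 (DESeq2) and 594 (no filter) in Il1b-KO mice, from 0 to 177, 360 and 1286 (DESeq2, no filter, block) in the reporter mice, and from 4 to 159 (no filter) and 0 (block) in whole muscle. Leaving out 1 library gave 100 to 334 with Il-17A, 7 to 670 in Il1b-KO mice, 1182 to 1579 of 2361 with TNFa and 137 to 481 at 12.5 against 7 weeks. Cxcl2 and Cxcl3 at counts near the floor are limited by depth.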

Other observations

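MmSCs of wild-type muscle 1 day after cardiotoxin were sorted in 2 experiments, and the chemokines stood at different levels. Cxcl1 was at 531 ± 73.7 CPM (SD, n = 3) in C57BL/6J mice of the injury experiment and at 6165 ± 748 CPM (SD, n = 2) in Il1b-WT littermates. Cxcl2 was at 9.97 ± 1.87 against 557 ± 35.0 CPM, and Cxcl3 at 22.7 ± 3.60 against 418 ± 12.2 CPM. The experiments were normalised separately and were not compared in a test.

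MmSCs of mice given neither cardiotoxin nor cytokine also differed by setting. Cxcl1 was at 17.8 ± 2.56 CPM (SD, n = 2) after PBS, at 58.1 ± 32.7 (SD, n = 3) on day 0 of the injury experiment and at 3927 ± 943 CPM (SD, n = 3) in untreated 2.5-week DMDmdx mice. The 2.5-week DMDmdx level of Cxcl1 was of the size seen 2 h after the 4 cytokines (3650 ± 688, SD, n = 2), and so was the balance of Cxcl3 to Cxcl2 counts, 3.65 to 7.14 against 4.93 and 5.17 per 100. Neither was particular to this pair of settings. Cxcl1 averaged 2951 CPM with Il-1b and 3011 CPM with Osm and Il-1b. The balance was 2.37 and 6.17 with Osm and Il-1b and 4.58 to 6.42 in day 1 CD45+ cells. Cxcl5 averaged 133 CPM in 2.5-week DMDmdx mice and 416 CPM 2 h after the 4 cytokines. These experiments were normalised separately and were not compared in a test, and the DMDmdx mice had no wild-type control. Wild-type MmSCs of day 1 after cardiotoxin stood at 531 and 6165 CPM of Cxcl1 in separate experiments.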
